A study of Mus musculus with 5 samples.

Results

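The prostaglandin genes described here are 10 genes of prostaglandin synthesis, inactivation and sensing, measured in whole mouse colon 3 hr after an agonist of the IL-11 receptor was given. They were chosen by symbol: the cyclooxygenases Ptgs1 and Ptgs2, the terminal synthases Ptges, Ptgds and Ptgis, the inactivating enzyme Hpgd, and the prostaglandin E2 receptors Ptger1, Ptger2, Ptger3 and Ptger4. All 10 were on the array, among 22911 genes with a symbol. They were read by 15 probes that all counted as well above background on all 5 arrays, though not at every repeated spot of Ptgds. Gene expression was measured on single-colour Agilent mouse arrays, which give the brightness of Cy3-labelled RNA bound to each probe. The 2 Control arrays held colon RNA of C57BL/B6 mice with no treatment stated, and the 3 NT-3N arrays held colon RNA of wild-type C57BL/B6 mice killed 3 hr after intravenous NT-3N. The methods do not use the name NT-3N. They describe the injected IL-11 receptor agonist as a human IL-11 altered in its linker for greater stability and activity. NT-3N is taken to be this agonist. The mice given NT-3N were 8 weeks old, and no age is stated for the Control mice. The dose is 10 mg in the series label and the same number in micrograms in the methods, and this was not resolved. No vehicle injection is stated for the Control mice, so the agonist and the injection cannot be told apart.

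Prostaglandins are short-lived lipid signals made from arachidonic acid, which phospholipases release from membranes. Cyclooxygenases turn it into an unstable intermediate, which a set of terminal synthases convert into the separate prostaglandins and thromboxane, and each product acts on its own G protein-coupled receptors close to where it is made. In the gut, prostaglandin E2 is known for supporting repair of the epithelium, for ion secretion and for effects on smooth muscle, and 15-hydroxyprostaglandin dehydrogenase limits it by oxidation.

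The promoters of the 4 genes whose arrays did not overlap between the groups are shown, since these genes carry the values described first. The sequences are from RefSeq, assembly GRCm38.p6, and run 5′ to 3′ on the gene's strand from 250 bases before to 50 bases after the annotated start, with motif matches in capitals. Promoters were held for 8 of the 10 genes; Ptger1 and Ptgis were not matched. The windows are chr2:36230176-36230475 on the plus strand for Ptgs1, chr1:150099781-150100080 on the plus strand for Ptgs2, chr2:25469700-25469999 on the minus strand for Ptgds and chr8:56294302-56294601 on the plus strand for Hpgd. The starts used for Ptgs1 and Ptgds lie inside the annotated gene span, so other transcripts of these genes begin elsewhere.
Ptgs1: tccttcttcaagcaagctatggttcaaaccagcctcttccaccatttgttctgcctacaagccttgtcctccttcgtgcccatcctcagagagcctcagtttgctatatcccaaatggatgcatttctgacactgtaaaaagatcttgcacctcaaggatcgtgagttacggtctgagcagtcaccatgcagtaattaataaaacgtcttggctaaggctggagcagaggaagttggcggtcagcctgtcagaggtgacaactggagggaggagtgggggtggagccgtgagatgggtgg
Ptgs2: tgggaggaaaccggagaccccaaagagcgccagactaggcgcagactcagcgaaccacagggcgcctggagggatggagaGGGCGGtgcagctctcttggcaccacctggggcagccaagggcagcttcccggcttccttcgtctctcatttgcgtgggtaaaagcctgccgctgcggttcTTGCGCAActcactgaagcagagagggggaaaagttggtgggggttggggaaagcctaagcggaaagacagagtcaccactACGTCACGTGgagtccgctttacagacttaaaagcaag
Ptgds: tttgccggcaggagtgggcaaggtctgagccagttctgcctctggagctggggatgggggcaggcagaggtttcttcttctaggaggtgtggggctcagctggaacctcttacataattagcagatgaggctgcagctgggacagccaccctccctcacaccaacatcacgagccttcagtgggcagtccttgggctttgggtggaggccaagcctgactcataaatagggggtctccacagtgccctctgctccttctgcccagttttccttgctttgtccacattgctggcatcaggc
Hpgd: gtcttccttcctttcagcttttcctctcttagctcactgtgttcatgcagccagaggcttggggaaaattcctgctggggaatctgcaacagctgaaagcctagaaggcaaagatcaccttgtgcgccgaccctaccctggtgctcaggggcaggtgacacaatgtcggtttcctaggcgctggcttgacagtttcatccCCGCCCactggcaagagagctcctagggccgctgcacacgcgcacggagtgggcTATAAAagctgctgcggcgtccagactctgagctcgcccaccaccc

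The motifs searched on both strands were the CRE core ACGTCA, the E-box CACGTG, the C/EBP palindrome TTGCGCAA, the TATA box TATAAA, the STAT motif TTCNNNGAA and the GC box GGGCGG. The Ptgs2 window held 4 matches, a GC box, the C/EBP palindrome from -69 to -62, and a CRE core from 12 to 17 that overlaps an E-box from 16 to 21, counted from 0 at the annotated start. The C/EBP palindrome occurred in 0.183% of 32851 promoters of this length, the CRE core in 7.51% and the E-box in 7.15%. The Hpgd window held a GC box from -50 to -45, found in 35.7% of promoters. It also held TATAAA, found in 13.6%, from 4 to 9, which is after the annotated start and not before it. The Ptgs1 and Ptgds windows held no match to these letters, and the STAT motif, present in 8.3% of all promoters, was in none of the 4 windows.

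None of the 10 genes passed an adjusted p of 0.05 in limma, a linear model with a spread shared over features, and none of the 15 probes did. Over all features 0.143% passed, and over all probes 0.168%. At an unadjusted p under 0.05, 2 of the 10 genes, Ptgs1 and Ptgds, were lower in NT-3N and 0 were higher, where 4.67% of all features were lower and 4.95% higher. The groups' arrays did not overlap for 4 genes, all lower in NT-3N (Ptgs1, Ptgs2, Ptgds and Hpgd), against 14.8% of features lower and 13.5% higher without overlap. Of the 10 log2 fold changes 5 were above and 5 below 0, with a median of 0.018, beside a median of -0.019 over all features. There are 10 ways to split the arrays into 2 and 3, so the exact permutation p of a gene (two-sided) is never under 0.1.

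**Figure D1:**
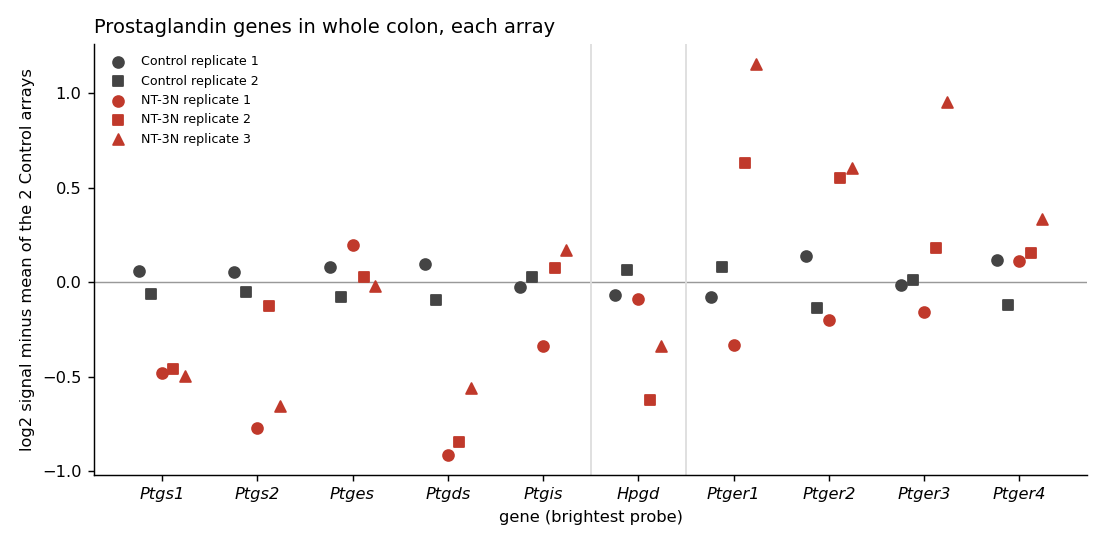
Log2 signal of the 10 prostaglandin genes on each array, as the difference from the mean of the 2 Control arrays; grey marks are Control and red marks NT-3N, and the vertical lines separate the synthesis genes, Hpgd and the receptors. The 3 NT-3N arrays of Ptgs1 lie together below both Control arrays, while for Ptger1, Ptger2 and Ptger3 NT-3N replicate 1 lies below both Control arrays and replicates 2 and 3 lie above them.

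Ptgs1, the cyclooxygenase that many tissues express steadily, gave log2 signals of 11.78 and 11.66 in Control and of 11.24, 11.26 and 11.22 in NT-3N. All 3 NT-3N arrays were below both Control arrays and lay closer to each other than the Control arrays did. The difference came to -0.48 on the log2 scale (SE 0.086, 95% interval from -0.69 to -0.27), a signal of 0.718 of that in Control. The unadjusted p was 0.0012 and the adjusted p 0.16 in limma, and the exact permutation p was 0.1, the smallest it can give.

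Ptgs2, the cyclooxygenase known to be induced in inflammation, read 7.36 and 7.25 in Control and 6.53, 7.18 and 6.65 in NT-3N on the log2 scale. NT-3N replicate 2 was just below the Control arrays and the other two were well below them. The log2 fold change was -0.52 with a 95% interval from -1.05 to 0.013, and limma's adjusted p was 0.53. The upper end of that interval, 0.013, is the largest rise of Ptgs2 RNA in whole colon that it holds. Without NT-3N replicate 2 the log2 fold change was -0.71 with an adjusted p of 0.53.

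Of the terminal synthases, Ptgds, which makes prostaglandin D2 and carries lipophilic ligands, had the most negative fold change of the 10 genes. Its log2 signals were 5.24 and 5.05 in Control and 4.23, 4.30 and 4.59 in NT-3N, with all NT-3N arrays below both Control arrays. The log2 fold change was -0.77 with a 95% interval from -1.38 to -0.17, limma's adjusted p was 0.42, and the exact permutation p was 0.1. The probe is dim: signals of probes that counted as well above background started between 3.33 and 3.70 on the arrays. It is spotted 10 times on each array, and all 10 spots were well above background on both Control arrays against 8, 9 and 10 on NT-3N replicates 1, 2 and 3. The SD over those spots was 0.14 and 0.19 in Control and 0.52, 0.35 and 0.36 in NT-3N. With another background correction, normexp, the log2 fold change was -0.22.

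Ptges, the inducible synthase of prostaglandin E2, read 14.12 and 13.96 in Control and 14.24, 14.07 and 14.02 in NT-3N, and the groups overlapped. Its log2 fold change was 0.068 with a 95% interval from -0.17 to 0.30. The other 2 Ptges probes gave 0.21 and 0.24, both with overlap. They were far dimmer, with Control means of 6.62 and 5.80 against 14.04 at the brightest probe, so the level of Ptges RNA is not settled. Ptgis, which makes prostacyclin, read 10.12 and 10.17 in Control and 9.81, 10.22 and 10.31 in NT-3N, which gave a log2 fold change of -0.032 (95% interval from -0.43 to 0.36). Its second probe gave -0.015. The direction of Ptges and Ptgis changed sign when single arrays were left out, to -0.014 for Ptges without Control replicate 2 and to 0.12 for Ptgis without NT-3N replicate 1.

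Hpgd, the dehydrogenase that begins the breakdown of prostaglandins, read 12.84 and 12.97 in Control and 12.81, 12.28 and 12.57 in NT-3N. NT-3N replicate 1 was only just below the lower Control array and replicate 2 was the lowest. The log2 fold change was -0.35 with a 95% interval from -0.73 to 0.031, and limma's adjusted p was 0.55. Without NT-3N replicate 2 the fold change on the log2 scale was -0.21, and without replicate 1 it was -0.48. Hpgd is known in colon epithelium. The mean log2 signal of the epithelial marker list was 15.67 and 15.63 in Control and 15.62, 15.56 and 15.52 in NT-3N, with 6 of 8 markers lower and 2 higher in sign and 0 passing an unadjusted p of 0.05. The list's median log2 fold change was -0.050, and Cdx2, a transcription factor of intestinal epithelium, had the value farthest from 0 at -0.46, with the other 7 between -0.13 and 0.066. The part of these cells in the Hpgd values was not tested. In whole tissue, fewer cells of a type and less RNA per cell cannot be told apart.

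**Figure D2:**
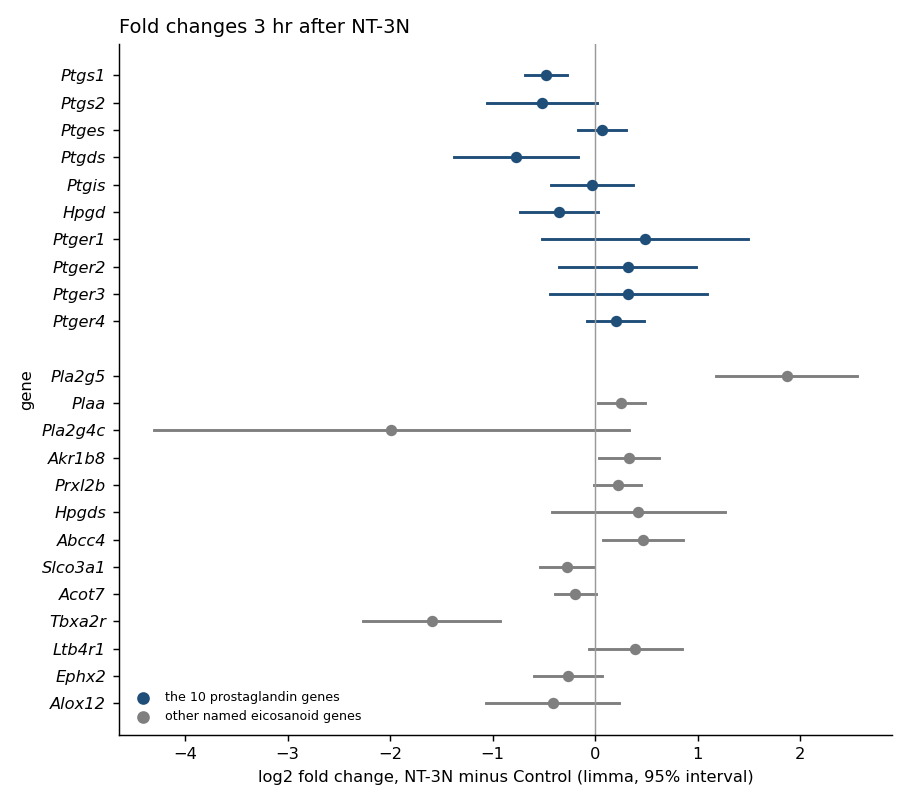
Log2 fold change of NT-3N against Control with its 95% interval from limma for the 10 prostaglandin genes (blue) and for the other named eicosanoid genes (grey) that were above background on all 5 arrays. Among the 10, the intervals of Ptgs1 and Ptgds lie below 0, and among the others those of Pla2g5 and Tbxa2r lie farthest from it.

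The 4 prostaglandin E2 receptors had positive fold changes, and the groups overlapped for each. Ptger4, which raises cyclic AMP and is known in gut epithelium and immune cells, read 12.05 and 11.81 in Control and 12.04, 12.08 and 12.26 in NT-3N, a log2 fold change of 0.20 with a 95% interval from -0.076 to 0.48. Its second probe gave 0.073. Ptger2, which also raises cyclic AMP, read 6.72 and 6.44 in Control and 6.38, 7.13 and 7.19 in NT-3N, which gave a log2 fold change of 0.32 (95% interval from -0.35 to 0.98). The adjusted p-values in limma were 0.63 and 0.75.

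Ptger1, a receptor coupled to calcium signals, read 5.81 and 5.97 in Control and 5.56, 6.52 and 7.04 in NT-3N, a log2 fold change of 0.49 with an interval from -0.52 to 1.49. Ptger3, which mainly lowers cyclic AMP, read 6.84 and 6.87 in Control and 6.70, 7.04 and 7.81 in NT-3N, which gave a log2 fold change of 0.32 (95% interval from -0.45 to 1.09). Its second probe gave 0.25. The spread among the NT-3N arrays was wider than among the Control arrays for Ptger1, Ptger2 and Ptger3. It was narrower for Ptger4, with an SD of 0.12 against 0.17. Over all features the median SD was 0.17 in NT-3N against 0.12 in Control. An SD over 2 arrays tends to come out smaller than one over 3, so these SDs are not directly comparable. The SD of Ptger1 was 0.75 against 0.11, and that of Ptger3 0.57 against 0.018.

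Ptger1, Ptger2, Ptger3 and Ptgis shared an order of arrays, noticed after their values were seen: NT-3N replicate 1 was below both Control arrays and replicates 2 and 3 were above both. At the brightest probe this order held for 4 of the 10 genes and for 5.22% of all features. The second Ptger3 probe and a dimmer Ptges probe also had it. The second Ptgis probe did not have it, since NT-3N replicate 2 lay between the Control arrays. It was also that of the mean of the fibroblast marker list, which was 12.39 and 12.32 in Control and 12.26, 12.85 and 12.63 in NT-3N, of the macrophage list, with 10.05 and 9.99 against 9.81, 10.28 and 10.14, of the endothelial list, with 8.41 and 8.38 against 8.36, 8.70 and 8.52, and of the enteric glia and neuron list, with 8.87 and 8.91 against 8.83, 8.998 and 9.17. The genes and these lists differed in how NT-3N replicates 2 and 3 ranked. All 4 genes and the enteric glia and neuron mean were highest on replicate 3. The fibroblast, macrophage and endothelial means were highest on replicate 2. Of the 8 fibroblast markers 5 were higher and 3 lower in sign, and all 8 were well above background on every array. Pdpn had a log2 fold change of 1.49 (adjusted p 0.067 in limma), and the other fibroblast markers lay between -0.18 and 0.32. Higher and lower signs numbered 4 and 4 in the macrophage list and 5 and 1 in the endothelial list. They numbered 2 and 6 in the enteric glia and neuron list. There Gfap had a log2 fold change of 1.84 (adjusted p 0.012 in limma), and the other markers lay between -0.30 and 0.0066. The part of these cells in the receptor values was not tested. Without NT-3N replicate 1, Ptger1 and Ptger2 had unadjusted p of 0.0083 and 0.013 in limma and log2 fold changes of 0.90 and 0.58, with adjusted p of 0.18 and 0.21. Without NT-3N replicate 3 the log2 fold changes were 0.15 for Ptger1, 0.17 for Ptger2 and 0.010 for Ptger3, and without Control replicate 2 that of Ptger4 was 0.080.

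**Figure D3:**
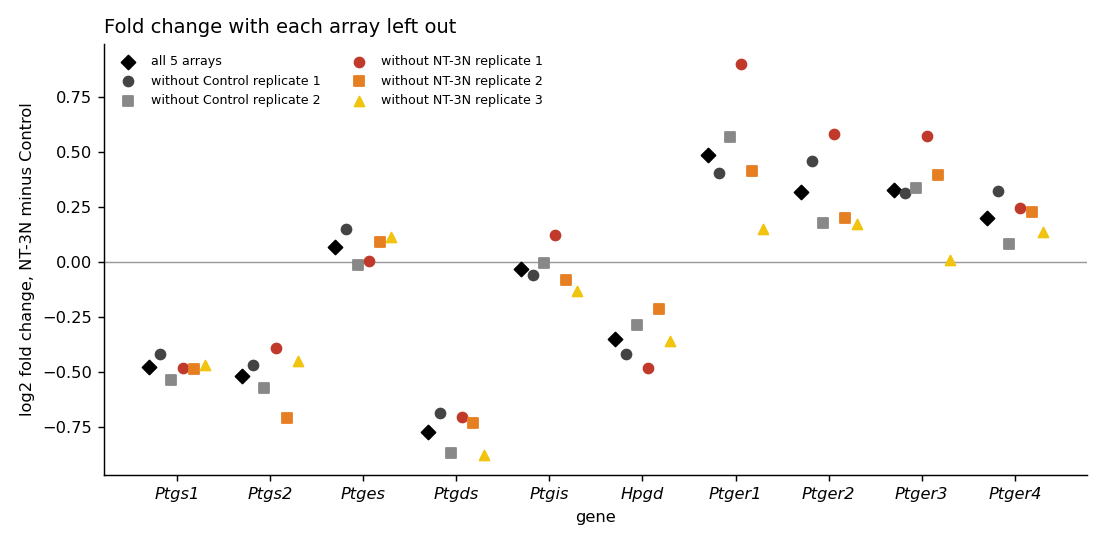
Log2 fold change of each of the 10 genes with all 5 arrays (black diamonds) and with each array left out in turn. Ptgs1 stays between -0.54 and -0.42, and the receptors Ptger1, Ptger2 and Ptger3 are highest without NT-3N replicate 1.

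To place the 10 genes, 5 lists of other eicosanoid genes were read in the same fit. Of 55 listed genes 50 were tested; Pla2g4e, Alox15 and Alox8 were too dim, and Pla2g2a and Fam213b (an older name of Prxl2b) had no probe under that symbol. Of the 50, 0 passed an adjusted p of 0.05 in limma. At an unadjusted p under 0.05, 4 were higher and 2 lower, and the arrays of the groups did not overlap for 7 higher and 5 lower genes. Over all features these shares were 4.95% and 4.67% at that p, and 13.5% and 14.8% without overlap. The median log2 fold change of the 50 genes was 0.028.

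Upstream of the cyclooxygenases, 12 genes of arachidonate release were tested. Pla2g5, a secreted phospholipase, read 10.46 and 10.04 in Control and 11.56, 12.50 and 12.29 in NT-3N, with every NT-3N array above both Control arrays. The difference was 1.87 on the log2 scale (SE 0.28), limma's adjusted p was 0.11, and its second probe gave 1.71, also without overlap. Pla2g5 passed an adjusted p of 0.05 in 3 of 15 alternatives. Limma gave 0.025 under array quality weights and 0.020 without NT-3N replicate 1, and the local-pooled-error test gave 2.9e-13. Over all features 176, 84 and 384 passed in these settings, against 47 in the main fit. The highest adjusted p was 0.60 in limma with the replicate number as a block, where NT-3N replicate 3 adds nothing to the difference. Pla2g4c, a cytosolic phospholipase, read 9.23 and 8.98 in Control and 7.64, 8.65 and 5.06 in NT-3N, a log2 fold change of -1.99 with an interval from -4.30 to 0.33. NT-3N replicate 3 was far below the other arrays, and without it the log2 fold change was -0.96. The second Pla2g4c probe gave -1.26 with overlapping groups. The adjusted p was 0.58 in limma and 0.0019 in the local-pooled-error test. Plaa, a phospholipase-activating protein, had a log2 fold change of 0.25 at 1 probe and of -0.043 at the other.

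Among 10 other prostanoid synthases, Akr1b8, an aldo-keto reductase, had a log2 fold change of 0.33, Prxl2b, a prostaglandin F synthase, of 0.22 and Hpgds, the hematopoietic prostaglandin D synthase, of 0.42. Their adjusted p-values in limma were 0.48, 0.54 and 0.74. Among 9 genes of transport and breakdown, Abcc4, an exporter of prostaglandins, read 8.75 and 8.72 in Control and 8.93, 9.41 and 9.28 in NT-3N, a log2 fold change of 0.47 with an adjusted p of 0.45. Slco3a1, a transporter, had a log2 fold change of -0.28 at its brightest probe and of -0.19 and -0.15 at its other probes. Acot7, an acyl-CoA thioesterase counted in this list, had -0.19 at its brightest probe and -0.042 with overlap at its other probe. At the brightest probes the adjusted p in limma was 0.50 for Slco3a1 and 0.53 for Acot7.

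Of the 7 other prostanoid receptor genes, Tbxa2r, the thromboxane receptor of platelets and smooth muscle, stood apart from its list. It read 8.34 and 8.43 in Control and 6.23, 7.12 and 7.02 in NT-3N, with all NT-3N arrays below both Control arrays. The difference was -1.59 on the log2 scale (SE 0.28), and limma gave an unadjusted p of 0.00098 and 0.15 after adjustment. Without NT-3N replicate 1 the log2 fold change was -1.32 with an adjusted p of 0.037 in limma. In that setting 84 of all features passed, against 47 in the main fit. Over 15 alternatives the adjusted p ran from 0.025 in the local-pooled-error test to 0.53 in limma with the replicate number as a block. With that block NT-3N replicate 3 adds nothing to the difference. The prostaglandin D2 receptors were close to background: Ptgdr was well above it on 0 Control and 2 NT-3N arrays, and Ptgdr2 on 1 array of each group, so no fold is given.

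The smooth muscle marker list was lower in NT-3N alongside Tbxa2r and Ptgs1. Its mean log2 signal was 15.43 and 15.46 in Control and 14.88, 15.22 and 15.10 in NT-3N. All 7 markers were lower in sign, 6 did not overlap between the groups and 3 passed an unadjusted p of 0.05 in limma. Over all features 14.8% were lower without overlap and 4.67% lower at that p. Smtn had a log2 fold change of -0.88 and the other markers lay between -0.40 and -0.22, beside -1.59 for Tbxa2r. All 7 markers were well above background on every array. NT-3N replicate 1 was the lowest array for both the list and Tbxa2r, whereas the NT-3N arrays of Ptgs1 differed by little. The part of smooth muscle in these values was not tested.

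**Figure D4:**
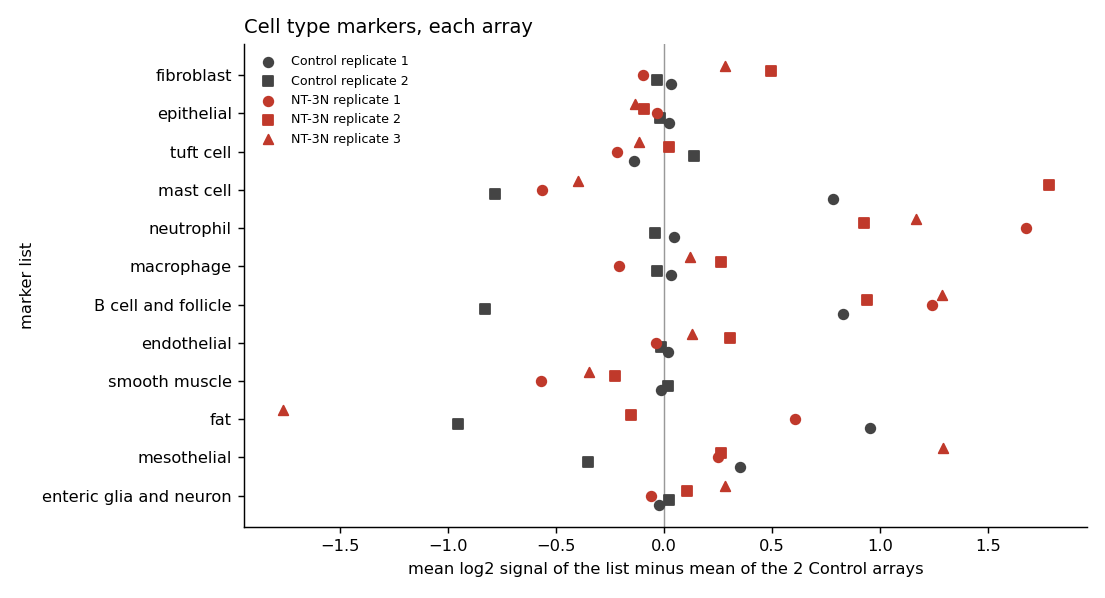
Mean log2 signal of each cell type marker list on each array, as the difference from the mean of the 2 Control arrays. The smooth muscle list lies below both Control arrays on all 3 NT-3N arrays. The neutrophil list lies above them through S100a8 and S100a9, which were not above background on the Control arrays, while the mast cell and fat lists spread widely within both groups and the B cell list within Control.

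Of the lipoxygenase and leukotriene branch 12 genes were tested. Ltb4r1, the leukotriene B4 receptor of neutrophils and other leukocytes, read 7.75 and 7.37 in Control and 8.19, 7.87 and 7.78 in NT-3N, a log2 fold change of 0.39, for which limma's adjusted p was 0.57. The neutrophil list had a mean log2 signal of 6.85 and 6.76 in Control and 8.48, 7.73 and 7.97 in NT-3N, and 3 of its 6 tested markers were higher and 3 lower in sign. The higher mean came from S100a8 and S100a9, which were well above background on 0 Control and 3 NT-3N arrays and so passed the filter through NT-3N alone. Of the others, Csf3r, Mpo and Elane had log2 fold changes of -0.16, -0.57 and -0.18 and Camp of 0.19. The part of neutrophils in the Ltb4r1 values was not tested. Ephx2, an epoxide hydrolase, had a log2 fold change of -0.26 and Alox12, a lipoxygenase of platelets, of -0.42, both with overlap.

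Tuft cells, which in the gut are known for Ptgs1 and Hpgds, gave a marker mean of 7.25 and 7.53 in Control and 7.17, 7.41 and 7.27 in NT-3N, and 0 of their 7 tested markers passed an unadjusted p of 0.05 in limma. The mast cell list, relevant to Hpgds, was 7.85 and 6.29 in Control and 6.51, 8.85 and 6.67 in NT-3N. Hpgds itself read 5.37 and 5.73 in Control and 5.30, 6.29 and 6.31 in NT-3N. The part of mast cells in the Hpgds values was not tested. All 8 epithelial markers were well above background on every array.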

How the data were processed

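Colon RNA of 5 mice was read on single-colour Agilent arrays on 1 slide with 1 scan time. The authors extracted spots with Feature Extraction 11.0.1.1 and deposited a background-subtracted intensity per spot, not scaled between arrays, with flags for outliers and background. The deposited log2 table of 37380 probes held quantile-normalized values (correlation with the values used here at least 0.9999) and served as an alternative. No p-value was taken from the authors.

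Outlier spots (69 to 184 of 59305 per array) and control spots were left out, the intensity was log2-transformed, spots of a probe were averaged and arrays quantile-normalized. Probes well above background on at least 2 arrays were kept. Accessions were matched to RefSeq symbols of GRCm38.p6, naming 32994 of 56605 probes. The brightest probe stood for a gene, giving 32917 features. The 2 groups were tested in limma 3.58.1, run under R 4.3.3 (lmFit, eBayes with an intensity trend, two-sided, Benjamini-Hochberg over all features); the local-pooled-error test that the methods name was an alternative. Of each pathway list, genes past an adjusted p of 0.05 were named and, below 3 of them, those with the smallest p until 3 were named. The members and lists were chosen with earlier results of these data known. Alternatives covered scaling, background correction, filter, variance model, weights, probe rule, replicate block and each array left out. The tests were checked on simulated data with independent noise, drawn from the spread that limma fitted. This does not check how they behave under array effects or shifts in cell types. The number of arrays limits the precision. Mice are taken as separate samples from the study's text. In limma a p-value sets the group difference against the spread between these arrays, partly shared over features. In the local-pooled-error test that spread is pooled over features of like signal.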

Additional observations from a re-analysis of the deposited data

How the results depend on the processing

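With 2 and 3 arrays only large or very even differences can pass an adjusted p, and dim genes such as Ptgds depend on the background correction. In none of the alternatives run did a member gene or a member probe pass an adjusted p of 0.05. Of 149 member fold changes under an alternative 145 kept their sign. Ptgs1 passed an unadjusted p of 0.05 in 15 of 15 alternatives in limma and the local-pooled-error test, with an adjusted p from 0.070 to 0.86.

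The count of members lower at an unadjusted p under 0.05 was 1 with the deposited log2 values, which have no Ptgds, and 1 with the local-pooled-error test, 3 with 75th percentile scaling, with normexp and with array quality weights, and 1 to 3 with single arrays left out: 1 without either Control replicate and 3 without NT-3N replicate 1. The count higher at that p was 2 without NT-3N replicate 1 and 0 without NT-3N replicate 2 or 3. More of the whole array also passed that p in limma in some settings. It was 5142 of 32580 features without NT-3N replicate 1 and 4990 of 32917 with array quality weights, against 3167 of 32917 in the main fit. The count of pathway genes past an adjusted p of 0.05 was 1 with array quality weights, 3 with the local-pooled-error test and 2 without NT-3N replicate 1. Over all features 176, 384 and 84 passed in these settings, against 47 in the main fit. Without NT-3N replicate 2 or 3 the count of pathway genes was 0. Ptges ranged from -0.014 to 0.15 and Ptgis from -0.13 to 0.12 with single arrays left out, and Ptgis was 0.059 with array quality weights and 0.073 with the local-pooled-error test. The cause was not tested. Deviations from the group means correlated at 0.13 and 0.036 between Control and NT-3N arrays of the same replicate number. With 2 Control arrays their deviations mirror each other. The correlations are therefore not separate checks and do not settle whether the numbers pair the arrays. With the replicate number as a block (replicate block), NT-3N replicate 3 has no Control array of its number and adds nothing to the difference. The Ptgs1 log2 fold change was -0.47 with the block and also without that array. In limma 0 of all features passed an adjusted p of 0.05 and 2488 an unadjusted one, against 47 and 3167 without the block. The block also leaves little from which to estimate the spread, so these counts cannot show whether pairing matters.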
